A study of Mus musculus with 24 samples.

Results

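Steroidogenesis and Leydig cell identity were followed through 10 genes in TM3 cells, a mouse Leydig cell line, after sham treatment or exposure to a nanosecond pulsed electric field (nsPEF). The genes were Star, Cyp11a1, Cyp17a1, Hsd3b1, Lhcgr, Nr5a1, Insl3, Scarb1, Fdx1 and Por, out of 23787 genes with a symbol on the array. A probe was taken for a gene where the RefSeq transcript that the scanner output gives for it belonged to that gene, and 9 of the 10 genes had such a probe. No probe was matched to Insl3, which is not analysed here. Of the 9 genes, 6 had a probe that passed the detection filter (8 probes, with a pair each for Scarb1 and Fdx1), and all 8 probes were well above background on all 24 arrays. Probes for Cyp11a1, Lhcgr and Hsd3b1 did not pass it.

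All groups were of the same line, grown in the same serum-containing medium, put into cuvettes as a suspension and collected at 0, 4 or 24 h. The nsPEF groups, called E0, E4 and E24, had received 80 pulses of 60 ns at 14 kV/cm, and the sham groups S0, S4 and S24 had received none. Each group had 4 biological replicates, and each RNA sample was read on a separate one-colour Agilent array. Each time had a slide to itself, with its 4 sham samples in the first row and its 4 nsPEF samples in the second, so time cannot be told apart from slide, nor treatment from place on the slide. TM3 is 1 established line, so the replicates are cultures of that line and not animals.

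Leydig cells lie between the tubules of the testis and make androgens. Luteinizing hormone binds the receptor Lhcgr and raises cAMP, cholesterol taken up through receptors such as Scarb1 is carried into mitochondria by Star, and there Cyp11a1, fed with electrons through Fdx1, cuts its side chain to give pregnenolone. Hsd3b1 and Cyp17a1, the latter fed with electrons by Por, carry pregnenolone on towards androgens in the endoplasmic reticulum, while the nuclear receptor Nr5a1 (SF-1) drives the genes of the pathway and Insl3 is a peptide hormone of Leydig cells.

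Sequence from RefSeq (GRCm38.p6) was available for the stretch before the transcription start of Cyp11a1 (with a pair of starts), Hsd3b1, Lhcgr, Insl3, Fdx1 and Por. The 250 bases before the start are shown for a pair of genes that were well above background on all arrays (Fdx1 and Por) and a pair that did not pass the detection filter (Hsd3b1 and Lhcgr). They are written 5′ to 3′ on the gene's strand. Capitals mark matches on either strand to the SF-1 core CAAGGT, the core of the cAMP response element TGACG, the GATA site AGATAA or the Sp1 box GGGCGG.
Fdx1, chr9:51963603-51963852, minus strand: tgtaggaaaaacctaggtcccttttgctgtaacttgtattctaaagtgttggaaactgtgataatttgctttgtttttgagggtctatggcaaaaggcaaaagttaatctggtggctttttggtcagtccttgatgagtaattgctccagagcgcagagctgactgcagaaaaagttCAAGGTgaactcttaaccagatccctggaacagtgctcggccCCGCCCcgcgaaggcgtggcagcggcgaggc
Por, chr5:135688895-135689144, plus strand: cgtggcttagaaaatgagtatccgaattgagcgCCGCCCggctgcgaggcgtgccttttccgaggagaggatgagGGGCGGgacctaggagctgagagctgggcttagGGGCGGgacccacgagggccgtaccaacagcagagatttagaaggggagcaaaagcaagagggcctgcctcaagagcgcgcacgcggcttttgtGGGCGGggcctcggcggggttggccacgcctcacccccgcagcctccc
Hsd3b1, chr3:98859795-98860044, minus strand: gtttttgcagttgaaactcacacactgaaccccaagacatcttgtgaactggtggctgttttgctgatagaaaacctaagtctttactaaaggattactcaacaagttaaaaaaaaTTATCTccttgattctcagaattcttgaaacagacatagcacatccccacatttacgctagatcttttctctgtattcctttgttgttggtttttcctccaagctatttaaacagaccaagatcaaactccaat
Lhcgr, chr17:88792015-88792264, minus strand: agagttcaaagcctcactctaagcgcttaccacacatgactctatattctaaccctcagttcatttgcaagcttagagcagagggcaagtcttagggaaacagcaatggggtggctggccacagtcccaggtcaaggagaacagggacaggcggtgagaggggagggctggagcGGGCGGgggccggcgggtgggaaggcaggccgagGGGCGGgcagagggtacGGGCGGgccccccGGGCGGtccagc

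The window of Fdx1 held an SF-1 core that began 73 bases before the start and an Sp1 box 31 bases before it on the opposite strand. The window of Por held 4 Sp1 boxes, and so did that of Lhcgr. The window of Hsd3b1 held a single GATA site, on the opposite strand. Among 32851 windows of the same length, 10.9% held the SF-1 core, 17.8% the cAMP core, 9.99% the GATA site and 32.7% the Sp1 box. A match of these letters is a description of the window and not a bound site.

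Levels are given on the log2 scale as the processed signal minus the 75th percentile of its array, so 0 is that percentile. The filter for testing was a call of well above background by the scanner software in 2 or more arrays within some group, and 37684 of 56605 probes passed. Differences came from limma, fitted to all 24 arrays, with Benjamini-Hochberg adjustment over all tested probes and a threshold of 0.05, and a probe is called, or said to have risen or fallen, only past that threshold. Levels of different probes cannot be set against each other on this platform. The share of probes well above background ran from 51.2% to 62.1% per array and was lower in nsPEF than in sham at each time, with means of 54.8% against 58.8%, 53.9% against 59.5% and 55.3% against 59.9% at 0, 4 and 24 h (exact permutation test, two-sided, p = 0.0286 each, the smallest that 4 against 4 allow). Spots marked as outliers by the scanner software numbered 257 to 406 per array in E4 and 348 to 508 in E24, against 96 to 137 in S4 and 134 to 192 in S24. At 0 h they numbered 146 to 220 in E0 and 141 to 174 in S0. The cause of the lower share on nsPEF arrays was not tested. For the level of a gene, fewer expressing cells and less RNA per cell cannot be told apart in these bulk samples.

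The genes that define a mature Leydig cell were in part not detected. Of 10 Leydig markers, Star, Cyp17a1 and Nr5a1 were well above background on all 24 arrays and Prlr, the prolactin receptor, on 20. Cyp11a1, Hsd3b6, Hsd17b3 and Lhcgr were well above background on 0 arrays, and so was the brighter probe of Hsd3b1, while its other probe was on 1. The data therefore held the cholesterol carrier, the electron donors, the scavenger receptor, the 17-hydroxylase and SF-1, but no signal well above background of the side-chain cleavage enzyme or of the hormone's receptor.

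The Cyp11a1 probe lay between -7.47 and -5.84 and its raw intensity was 2.07 to 4.52 units, against 75th percentiles of 202 to 533 units on the arrays. The Lhcgr probe lay between -7.40 and -5.82. On every array both were below the lowest signal that was called well above background, by at least 1.20 for Cyp11a1 and by at least 1.13 for Lhcgr. Their position relative to the percentile was higher on nsPEF arrays, as in Lhcgr with group means of -6.94 in S0, -7.06 in S4 and -6.95 in S24 against -6.16 in E0, -6.10 in E4 and -6.18 in E24. The lowest signal well above background moved the same way, from -5.29 to -4.68 on sham arrays to -4.69 to -3.70 on nsPEF arrays, and no fold is given for probes below it.

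Hsd3b1 had a pair of probes. The brighter one lay between -6.82 and -4.44 and no array called it well above background. Its group means were -6.06 in S0, -5.89 in S4 and -5.14 in S24, and -6.07 in E0, -6.08 in E4 and -5.15 in E24. The other probe was well above background on 1 of 24 arrays, E4 replicate 4, at -3.46, while its remaining values lay between -7.50 and -5.88. No order of the groups can be read from either probe.

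**Figure D1:**
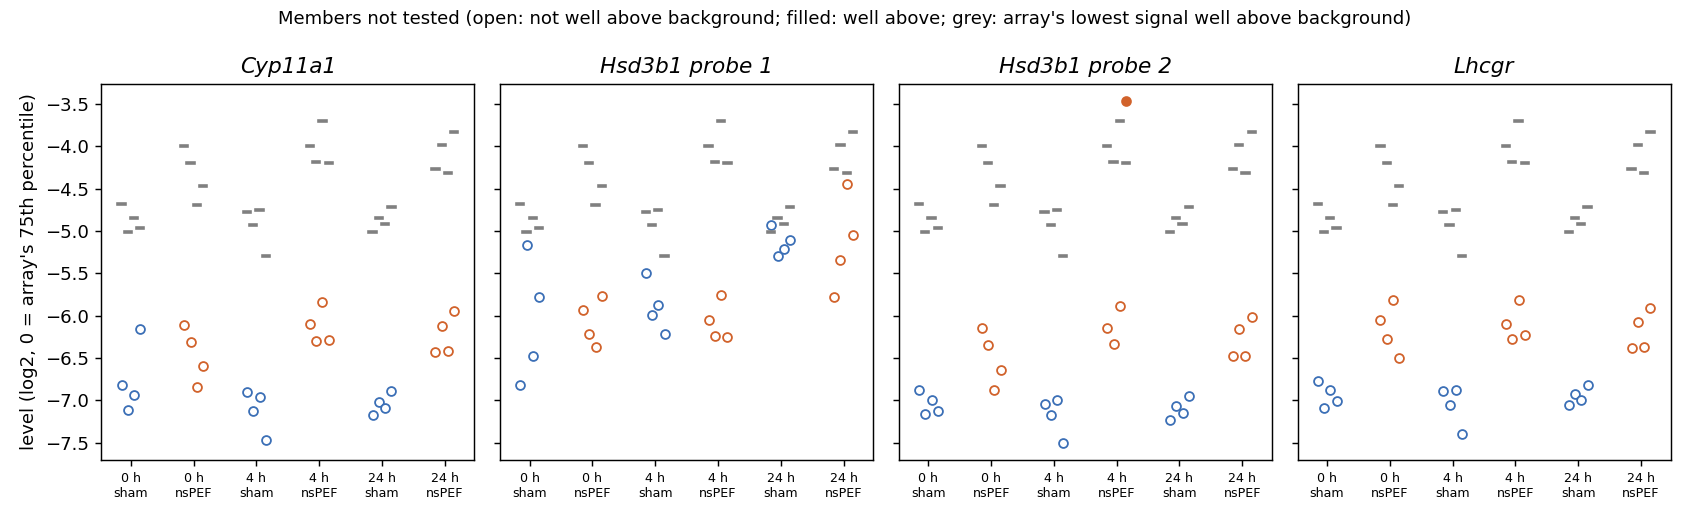
Levels of the probes for Cyp11a1, Hsd3b1 and Lhcgr on each of the 24 arrays (log2 relative to the array's 75th percentile), with sham arrays in blue, nsPEF arrays in orange and the lowest signal well above background on the same array as a grey dash. A single point, Hsd3b1 probe 2 on E4 replicate 4 at -3.46, is filled as well above background, and the grey dashes sit higher on nsPEF arrays.

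Star, the carrier that limits the entry of cholesterol into mitochondria, was dim and moved with time, up at 4 h and down at 24 h. In sham cells it stood at -2.88, -3.22, -3.00 and -3.34 at 0 h, at -2.36, -1.79, -2.28 and -2.35 at 4 h, and at -3.70, -3.45, -3.88 and -3.91 at 24 h. In nsPEF cells it stood at -3.02, -3.01, -2.74 and -2.68, then at -2.40, -2.51, -2.53 and -2.23, and then at -3.79, -3.74, -3.51 and -3.59. In both treatments all arrays of 4 h lay above all arrays of 0 h, and all arrays of 24 h lay below them. The signal was near the detection limit at its lowest, 0.24 above the limit of the array, and its raw intensity ran from 18.1 to 105 units.

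Star rose by 0.91 (SE 0.14, adjusted p = 6.5e-06) from 0 h to 4 h in sham cells, a 1.88-fold rise. It rose by 0.44 (SE 0.14, adjusted p = 0.00763) in nsPEF cells. At 24 h it had fallen by 0.63 (SE 0.14, adjusted p = 0.00114) from 0 h in sham cells and by 0.79 (SE 0.14, adjusted p = 9.8e-05) in nsPEF cells. Exposure differed from sham by 0.25 at 0 h (95% interval -0.039 to 0.53), -0.22 at 4 h (-0.51 to 0.060) and by 0.076 at 24 h (-0.21 to 0.36), with the arrays of both groups overlapping each time. The test of treatment by time gave an adjusted p of 0.334, so the size of the rise was not shown to differ between treatments. The nsPEF call at 4 h was lost with quantile normalization (0.33, adjusted p = 0.0512), with normexp background correction (0.18, adjusted p = 0.143) and without replicate 1 of every group (0.39, adjusted p = 0.0576). Both calls at 24 h were lost with spike-in scaling (0.073, adjusted p = 0.667, in sham and -0.32, adjusted p = 0.0723, in nsPEF cells).

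Por, which passes electrons from NADPH to Cyp17a1 and the other cytochromes of the endoplasmic reticulum, also stood highest at 4 h. Its arrays read 4.88, 4.89, 4.78 and 4.83 in S0, 5.39, 5.55, 5.39 and 5.56 in S4, and 4.73, 4.73, 4.69 and 4.75 in S24. Its nsPEF arrays read 4.82, 4.73, 4.79 and 4.75, then 5.50, 5.41, 5.38 and 5.52, and then 4.71, 4.74, 4.70 and 4.73. The values of 4 h stood apart from all the others, and within each time sham and nsPEF overlapped. Por rose by 0.63 (SE 0.046, adjusted p = 2.9e-10) in sham and by 0.68 (SE 0.046, adjusted p = 7.6e-11) in nsPEF cells at 4 h. At 24 h the difference from 0 h was -0.12 in sham (adjusted p = 0.0521) and -0.055 in nsPEF cells (adjusted p = 0.357), neither past the threshold. The sham difference at 24 h was called with array quality weights (-0.13, adjusted p = 0.00791) and without S0 replicate 3 (-0.14, adjusted p = 0.0380), any replicate of S4 or E4 replicate 4 (-0.12 each, adjusted p = 0.0392 to 0.0489), and with the replicate number as a block (-0.12, adjusted p = 0.0455). With spike-in scaling both turned to rises, of 0.58 (adjusted p = 2.1e-07) in sham and 0.42 (adjusted p = 1.7e-05) in nsPEF cells. Its promoter window is the one above with 4 Sp1 boxes.

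**Figure D2:**
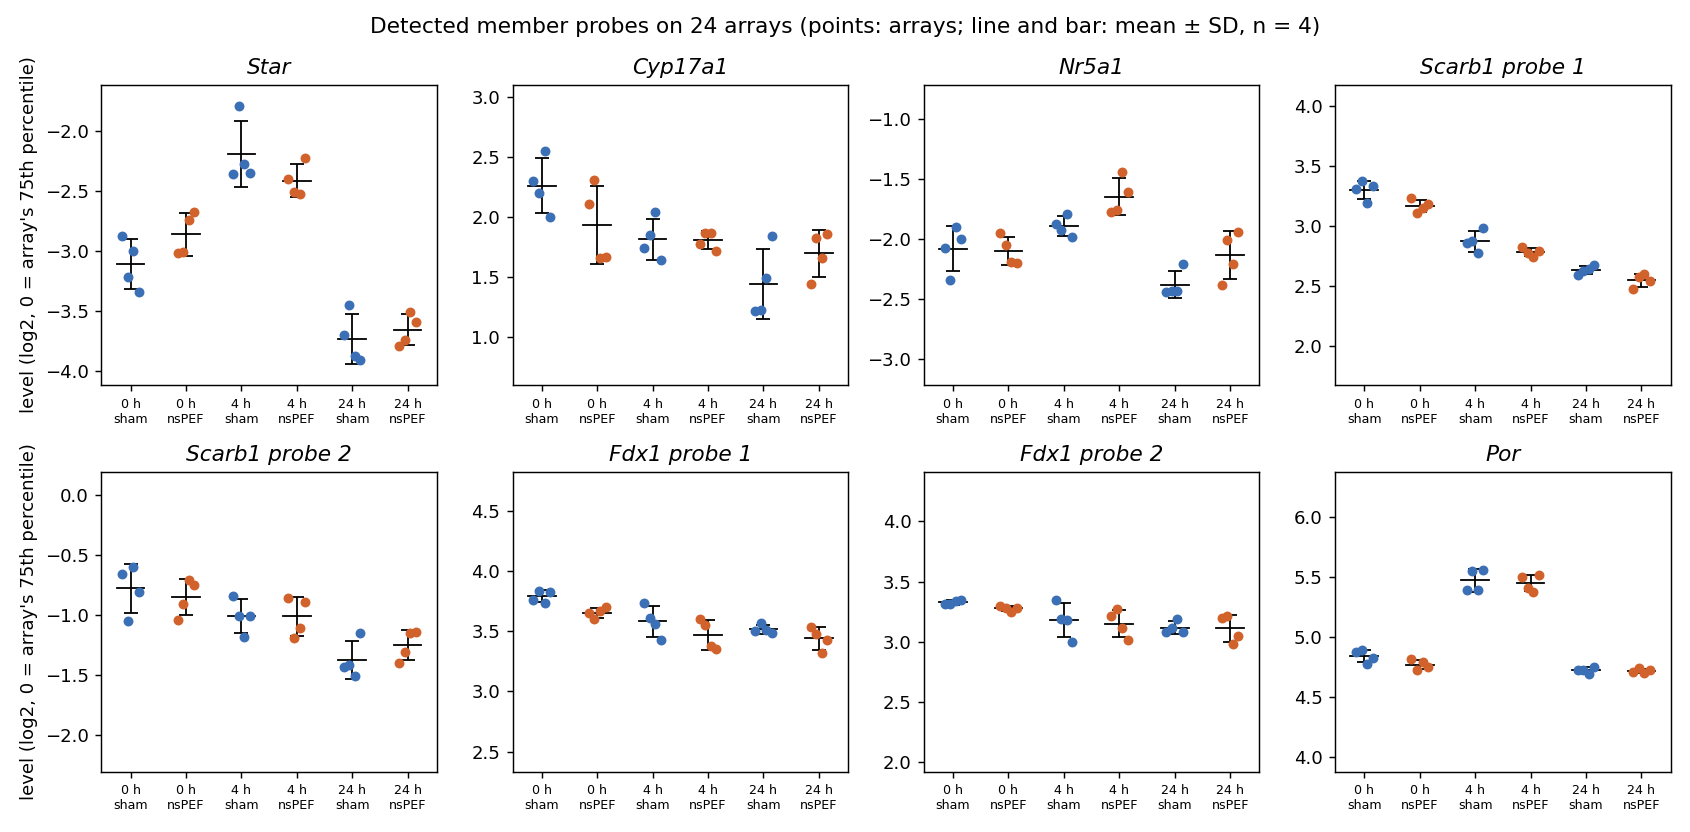
Levels of the 8 detected probes on each of the 24 arrays (log2 relative to the array's 75th percentile; sham in blue, nsPEF in orange; line and bar are the mean ± SD of 4 arrays, and each panel spans the same height). Star and Por stand highest at 4 h, Scarb1 steps down from 0 h to 24 h, and sham and nsPEF lie close at each time.

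Cyp17a1, the enzyme that commits steroids to androgens by its 17-hydroxylase and lyase reactions, went down with time in sham cells. The arrays read 2.30, 2.20, 2.55 and 2.00 in S0, 1.74, 1.85, 2.04 and 1.64 in S4, and 1.22, 1.23, 1.49 and 1.84 in S24. Nothing at 24 h reached the 0 h range, while the ranges of 0 h and 4 h overlapped. Cyp17a1 fell by 0.45 (SE 0.16, adjusted p = 0.0196) at 4 h and by 0.82 (SE 0.16, adjusted p = 4.0e-04) at 24 h. The nsPEF arrays read 2.11, 2.31, 1.66 and 1.67 in E0, 1.78, 1.87, 1.87 and 1.72 in E4, and 1.44, 1.83, 1.66 and 1.86 in E24, and they overlapped across times. There the differences from 0 h were -0.13 (95% interval -0.46 to 0.20, adjusted p = 0.500) and -0.24 (-0.57 to 0.089, adjusted p = 0.229). Set against sham, nsPEF cells stood at -0.33 at 0 h (-0.66 to 0.0052), -0.0076 at 4 h (-0.34 to 0.32) and 0.25 at 24 h (-0.082 to 0.58), and the interaction test gave an adjusted p of 0.313. The call at 4 h was lost in 4 of the 28 fits that left out an array or a replicate number, namely without S0 replicate 3, S4 replicate 4, or replicate 1 or replicate 3 of every group (differences of -0.35, -0.39, -0.41 and -0.42, adjusted p = 0.0594 to 0.0902). The sham call at 24 h was lost with spike-in scaling (-0.12, adjusted p = 0.486).

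Nr5a1, the nuclear receptor SF-1, was dim but well above background everywhere, with levels from -2.44 to -1.44. At 4 h it read -1.87, -1.92, -1.79 and -1.98 in sham and -1.77, -1.76, -1.44 and -1.61 in nsPEF cells, so the highest sham array lay below the lowest nsPEF array. This difference of 0.24 (SE 0.11, 95% interval 0.024 to 0.47) had an adjusted p of 0.192, and 13.7% of all tested probes had arrays that did not overlap in this comparison. At 24 h it was 0.24 again (SE 0.11, adjusted p = 0.183), with sham arrays at -2.44, -2.43, -2.43 and -2.21 and nsPEF arrays at -2.38, -2.01, -2.21 and -1.94, which overlapped, and at 0 h it was -0.016 (adjusted p = 0.988). With spike-in scaling the difference at 4 h was 0.44 (adjusted p = 0.0148), past the threshold, and with array quality weights the difference at 24 h was 0.29 (adjusted p = 0.0354).

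Over time Nr5a1 rose by 0.45 (SE 0.11, adjusted p = 9.6e-04) from 0 h to 4 h in nsPEF cells, and in sham cells the difference was 0.19 (adjusted p = 0.133). In sham cells it fell by 0.30 (SE 0.11, adjusted p = 0.0322) from 0 h to 24 h, and in nsPEF cells the difference was -0.040 (adjusted p = 0.792). The test of treatment by time for Nr5a1 gave an adjusted p of 0.455. The sham call at 24 h was lost in 9 of the 28 fits that left out arrays, which include 3 of the 4 arrays of S0 (replicates 1, 3 and 4), 3 of S24 (replicates 1, 2 and 3) and replicate 1, 3 or 4 of every group (differences of -0.33 to -0.22, adjusted p = 0.0502 to 0.198). It was also lost with no filter (-0.30, adjusted p = 0.0543) and with the percentile over probes detected on all arrays (-0.25, adjusted p = 0.0805). Under spike-in scaling it turned to a higher call (0.40, adjusted p = 0.00238).

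Scarb1, the scavenger receptor that takes up cholesterol esters from high-density lipoprotein, was read by a pair of probes, each designed on a different RefSeq transcript of the gene. Probe 1 read 3.31, 3.37, 3.19 and 3.33 in S0, 2.86, 2.87, 2.77 and 2.98 in S4, and 2.59, 2.62, 2.64 and 2.67 in S24. In nsPEF cells it read 3.23, 3.11, 3.15 and 3.18, then 2.82, 2.77, 2.74 and 2.79, and then 2.47, 2.57, 2.60 and 2.54. The 3 times did not overlap in either treatment, so probe 1 stepped down from 0 h to 4 h to 24 h relative to the percentile. With spike-in scaling its differences from 0 h were -0.39 and 0.027 in sham and -0.30 and -0.14 in nsPEF cells. Those at 24 h were not called (adjusted p = 0.712 and 0.0645). By the percentile scaling probe 1 fell by 0.43 (SE 0.048, adjusted p = 1.3e-07) at 4 h and by 0.67 (SE 0.048, adjusted p = 1.6e-09) at 24 h in sham, and by 0.39 (adjusted p = 6.7e-07) and 0.62 (adjusted p = 4.4e-09) in nsPEF cells.

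Scarb1 probe 2 ran from -1.51 to -0.60. It differed from 0 h by -0.23 at 4 h in sham (adjusted p = 0.0870) and by -0.16 in nsPEF cells (adjusted p = 0.217), and it fell by 0.60 (SE 0.11, adjusted p = 2.7e-04) and 0.40 (SE 0.11, adjusted p = 0.00695) at 24 h. The sham difference at 4 h was called without S0 replicate 2 (-0.32, adjusted p = 0.0200), S4 replicate 1 (-0.28, adjusted p = 0.0478) or replicate 2 of every group (-0.32, adjusted p = 0.0484). Both probes were thus lower at 24 h by the percentile scaling. Under spike-in scaling probe 2 was not called at 24 h (0.10, adjusted p = 0.525, in sham and 0.081, adjusted p = 0.625, in nsPEF cells). The levels of both probes over the 24 arrays had a Pearson r of 0.763, a description over arrays that share time and slide.

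Averaged over the 3 times, Scarb1 probe 1 was the single member probe called between nsPEF and sham. It was lower in nsPEF by a log2 difference of -0.10 (SE 0.028, adjusted p = 0.0280), with -0.14, -0.090 and -0.082 at 0, 4 and 24 h and overlapping arrays at each. Scarb1 probe 2 gave 0.017 (95% interval -0.12 to 0.15, adjusted p = 0.893). Across all probes 8.84% were called in this comparison, and 1 of 8 member probes is near that share. The call was lost without S0 replicate 2 (adjusted p = 0.0506), without E0 replicate 2 (adjusted p = 0.0505), without any of the 4 replicate numbers (adjusted p = 0.0603 to 0.213) and with spike-in scaling (-0.010, adjusted p = 0.878). Fdx1 probe 1 gave -0.11 (SE 0.038, adjusted p = 0.0726), and it was called under 7 of 15 other settings and without S4 replicate 4 (-0.13, adjusted p = 0.0309) or E4 replicate 1 (-0.12, adjusted p = 0.0410). Nr5a1 gave 0.16 (adjusted p = 0.109) and was called with array quality weights (0.17, adjusted p = 0.0492), centring by array row (0.19, adjusted p = 0.0419) and spike-in scaling (0.25, adjusted p = 0.0150), and without E24 replicate 1 (0.18, adjusted p = 0.0481).

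Fdx1, the ferredoxin that hands electrons to Cyp11a1 in mitochondria, went down slightly from 0 h to 24 h relative to the percentile. Probe 1 read 3.76, 3.84, 3.74 and 3.83 in S0, 3.74, 3.61, 3.56 and 3.43 in S4, and 3.50, 3.57, 3.51 and 3.49 in S24. In nsPEF cells it read 3.65, 3.60, 3.67 and 3.70, then 3.60, 3.55, 3.38 and 3.35, and then 3.54, 3.48, 3.32 and 3.43. Arrays of 24 h lay below those of 0 h in both treatments, and those of 4 h overlapped the 24 h range. Probe 1 fell by 0.20 (SE 0.065, adjusted p = 0.0108) at 4 h and by 0.28 (adjusted p = 0.00248) at 24 h in sham, and by 0.19 (adjusted p = 0.0190) and 0.22 (adjusted p = 0.0116) in nsPEF cells. Of these, the nsPEF call at 4 h was lost without E0 replicate 4 (-0.17, adjusted p = 0.0503), E4 replicate 3 (-0.16, adjusted p = 0.0642) or E4 replicate 4 (-0.15, adjusted p = 0.0738), and without replicate 3 (-0.15, adjusted p = 0.127) or 4 (-0.13, adjusted p = 0.134) of every group. The sham call at 4 h was lost without replicate 2 (-0.20, adjusted p = 0.0633) or 4 (-0.14, adjusted p = 0.110) of every group, and the nsPEF call at 24 h without replicate 3 (-0.17, adjusted p = 0.121). At 4 h the sham call was also lost with spike-in scaling (-0.16, adjusted p = 0.191) and normexp background correction (-0.15, adjusted p = 0.0627), and the nsPEF call with spike-in scaling (-0.10, adjusted p = 0.399). Under spike-in scaling both 24 h differences turned to higher calls, 0.42 (adjusted p = 7.9e-04) in sham and 0.26 (adjusted p = 0.0264) in nsPEF cells.

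Fdx1 probe 2 ran from 2.98 to 3.35. In sham cells it differed by -0.15 at 4 h (adjusted p = 0.0649) and fell by 0.21 (SE 0.068, adjusted p = 0.0182) at 24 h, and in nsPEF cells it differed by -0.13 (adjusted p = 0.113) and -0.16 (adjusted p = 0.0572). At 0 h both Fdx1 probes had every nsPEF array under the lowest sham array, with differences of -0.14 (adjusted p = 0.500) and -0.052 (adjusted p = 0.889), while 8.61% of all tested probes did not overlap there. The sham call of probe 2 at 24 h was lost with normexp background correction (-0.10, adjusted p = 0.268) and without replicate 1, 2 or 3 of every group (adjusted p = 0.0572 to 0.0715). Under spike-in scaling probe 2 was called higher at 24 h in both sham and nsPEF cells. The sham difference at 4 h was called without S4 replicate 1 (-0.20, adjusted p = 0.0130) or replicate 1 of every group (-0.21, adjusted p = 0.0331), and the nsPEF difference at 24 h without E24 replicate 1 (-0.19, adjusted p = 0.0370), E24 replicate 2 (-0.20, adjusted p = 0.0374), E4 replicate 4, S4 replicate 1 or S4 replicate 4 (-0.16 each, adjusted p = 0.0319 to 0.0457). With the replicate number as a block both were called (-0.15, adjusted p = 0.0479, and -0.16, adjusted p = 0.0419). Both probes read the same transcript and are not independent.

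Counted over the 8 tested probes of the 6 genes, none was called between nsPEF and sham at a single time. The counts were 0 of 8 at 0 h, where 0.127% of all 37684 probes were called, 0 of 8 at 4 h, where 3.31% were, and 0 of 8 at 24 h, where 4.82% were, all by limma. At an unadjusted p under 0.05 there was 1 probe each time, Scarb1 probe 1 at 0 h and Nr5a1 at 4 and 24 h. The treatment-by-time interaction called 0 of 8, with 0 at an unadjusted p under 0.05, against 0.377% of all probes. The medians of the 8 differences were -0.072, -0.024 and 0.036, against -0.029, 0.0049 and 0.023 over all tested probes. The intervals over the 3 times reached from -0.66 to 0.58 for Cyp17a1 and from -0.17 to 0.087 for Por.

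**Figure D3:**
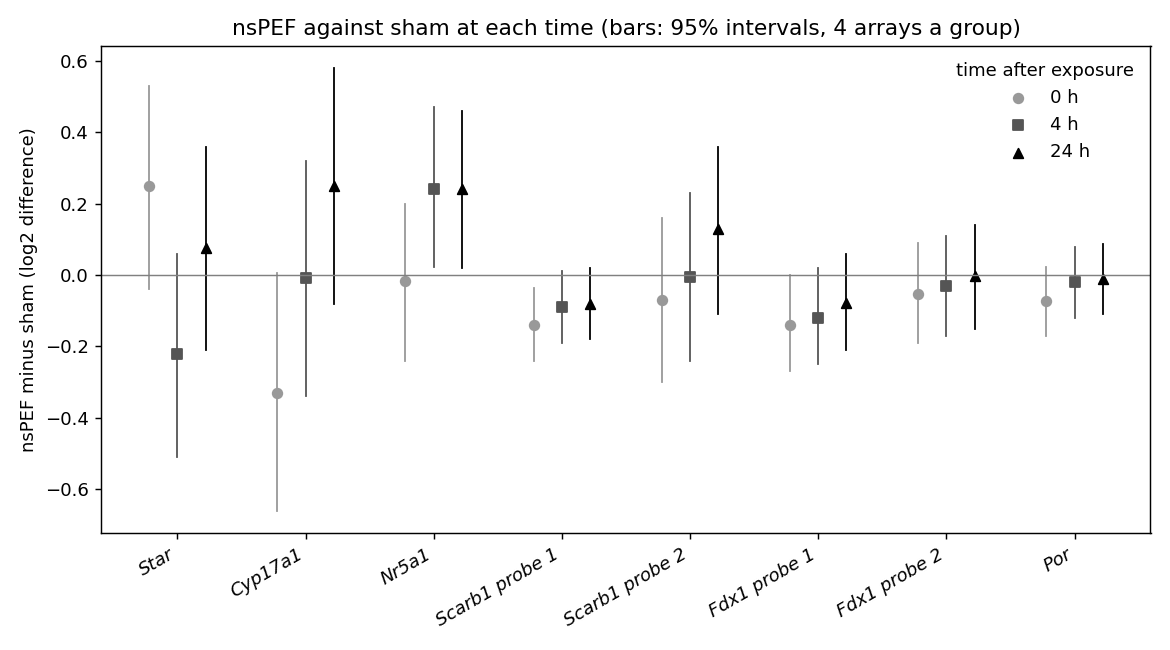
Log2 difference between nsPEF and sham for each detected probe at 0, 4 and 24 h, with 95% intervals from the fit to all 24 arrays. Most intervals span 0, Nr5a1 sits at 0.24 at 4 and 24 h, and the intervals are widest for Cyp17a1 and narrow for Por and Scarb1 probe 1.

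All tested members were called for time. In the test of time over both treatments 8 of 8 probes were called, where 80.2% of all probes were, and the calls were lost for Scarb1 probe 2 with spike-in scaling (adjusted p = 0.126) and for Fdx1 probe 2 with normexp background correction (adjusted p = 0.0578). From 0 h to 4 h, 5 of 8 were called in sham (2 higher, 3 lower; 59.1% of all probes) and 5 of 8 in nsPEF cells (3 higher, 2 lower; 61.3%), with Star and Por higher and Scarb1 probe 1 and Fdx1 probe 1 lower in both. From 0 h to 24 h, 7 of 8 were called in sham, all lower, against 36.6% of all probes in either direction, and 4 of 8 in nsPEF cells, all lower, against 42.2%. The median difference at 24 h was -0.45 in sham and -0.23 in nsPEF cells, where the median over all tested probes was -0.00096 and 0.062. Groups at 24 h and 0 h did not overlap for 7 of 8 probes in sham, and for 5 of 8 in nsPEF cells, against 42.2% and 38.4% of all probes. The sham comparisons at 4 and 24 h share the arrays of S0, and the nsPEF comparisons share those of E0.

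**Figure D4:**
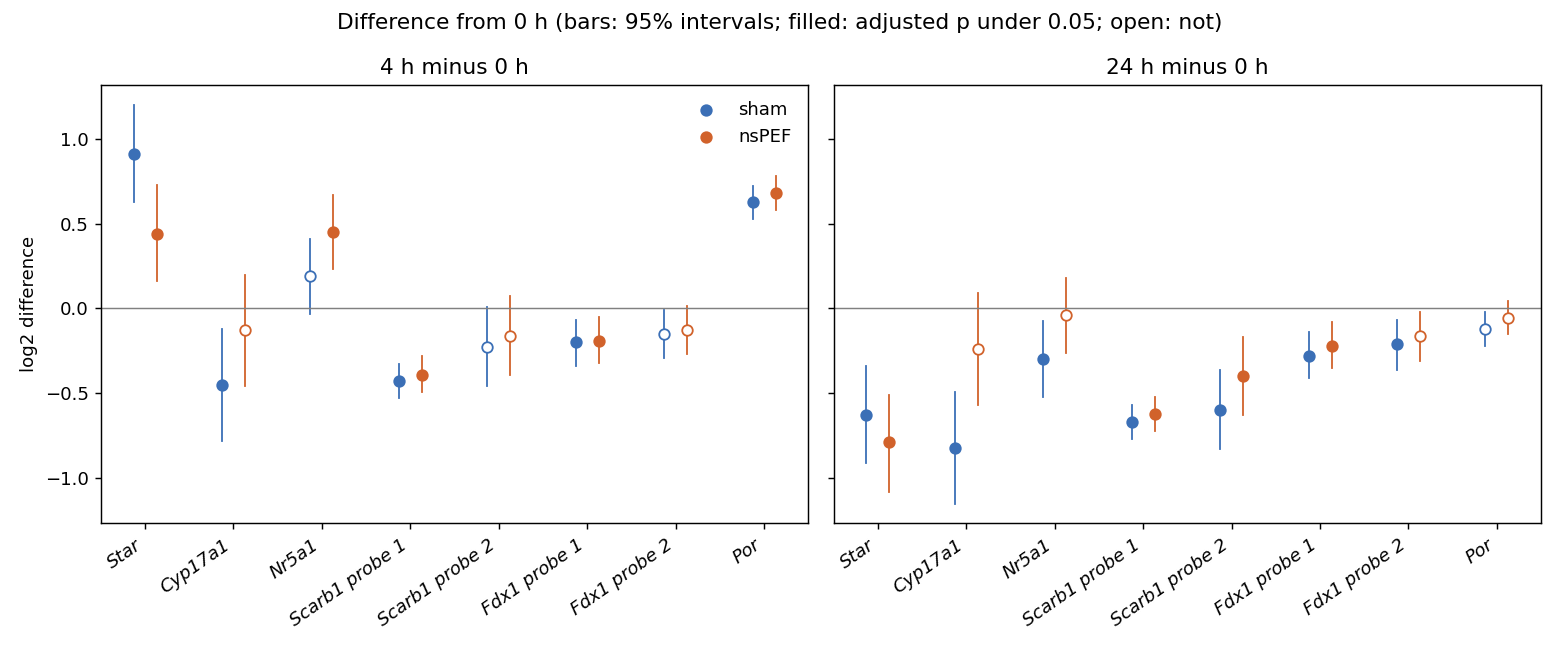
Log2 difference from 0 h at 4 h (left) and 24 h (right) for each detected probe in sham (blue) and nsPEF cells (orange), with 95% intervals; filled points passed an adjusted p of 0.05. Star and Por lie above 0 at 4 h, and at 24 h every point lies below 0 relative to the 75th percentile.

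The direction at 24 h rests on the scaling. By quantile normalization, as by the percentile, 5 member genes were called lower and 0 higher in sham cells. In nsPEF cells 3 were lower and 0 higher by both. Spike-in RNA, which the authors added to the RNA of each sample, put the median of all tested probes 0.70 higher at 24 h than at 0 h in sham cells and 0.54 higher in nsPEF cells, and shifted it by 0.12, 0.20 and -0.042 between nsPEF and sham at 0, 4 and 24 h and by 0.040 and 0.17 from 0 h to 4 h in sham and nsPEF cells. Scaled on it, Star in sham cells stood at 0.073 (adjusted p = 0.667), Scarb1 probe 1 at 0.027 (adjusted p = 0.712) and Cyp17a1 at -0.12 (adjusted p = 0.486) at 24 h. Nr5a1 stood 0.40 higher (adjusted p = 0.00238), Fdx1 probe 1 was 0.42 and probe 2 was 0.49 higher (adjusted p = 7.9e-04 and 1.3e-04), and Por was 0.58 higher. In nsPEF cells at 24 h 4 probes were called higher, Nr5a1 (0.44, adjusted p = 0.00140), Fdx1 probe 1 (0.26, adjusted p = 0.0264), Fdx1 probe 2 (0.31, adjusted p = 0.00683) and Por (0.42). Of the 4 called lower there by the percentile scaling, only Fdx1 probe 1 turned to a higher call. The others lost their calls, with Star at -0.32 (adjusted p = 0.0723), Scarb1 probe 1 at -0.14 (adjusted p = 0.0645) and Scarb1 probe 2 at 0.081 (adjusted p = 0.625). Members were thus called lower at 24 h by the percentile scaling, and none of the 8 probes was called lower at 24 h relative to the added RNA in sham or nsPEF cells. At 4 h Star (0.96), Por (0.67), Cyp17a1 (-0.40) and Scarb1 probe 1 (-0.39) kept direction and call in sham cells under it, and Fdx1 probe 1 lost its call.

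The order of the 6 groups differed between members. Star ran from S4 through E4, E0, S0 and E24 to S24, with a gap between the 4 h and 0 h groups and another between the 0 h and 24 h groups, and with overlap of sham and nsPEF within each time. Por ran from S4 through E4, S0, E0 and S24 to E24, and its only gap was between the 4 h groups and the rest. Scarb1 probe 1 ran from S0 through E0, S4, E4 and S24 to E24 with a gap at each change of time. Cyp17a1 and Scarb1 probe 2 ran from S0 down to S24, with no neighbours in the order that stood apart.

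Other genes with patterns most like those of the members were found by the Pearson r of their levels over the 24 arrays, among 12342 genes detected on all of them. For Star they were Slc25a25 (r = 0.949), Snai1 (0.948) and Hbegf (0.944), and for Por they were Tgfb1i1 (0.990), Usp36 (0.989) and Nrp1 (0.987). Scarb1 probe 1 was most like Ccno (0.980), Ces2g (0.978) and Slc35a2 (0.977), and among those most like Cyp17a1 were Serf2 (0.946) and Caskin1 (0.926). Nr5a1 was most like Jph4 (0.941), Ovch2 (0.907) and Actg2 (0.905), and Fdx1 probe 1 like Mb21d2 (0.960), Aurka (0.939) and Copa (0.935). Among the members themselves Star and Por had an r of 0.855 and Por and Scarb1 probe 1 one of -0.0158. The arrays share slides by time, so these values describe time courses that look alike.

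The wider set of steroid enzymes and redox partners held 28 genes, of which 19 were tested. Between nsPEF and sham, 0 of 19 were called at 0 h, 2 at 4 h and 2 at 24 h, all lower, against 0.127%, 3.31% and 4.82% of all probes in either direction. Over all times 7 were called, 1 higher and 6 lower, against 8.84%. The higher one was Cyp21a1, a 21-hydroxylase (0.63, adjusted p = 0.0324), which was not well above background on all arrays. The lowest signal well above background was also higher on nsPEF arrays, and its part in this difference was not tested. With quantile normalization the counts were 5 lower at 4 h and 4 lower at 24 h, and with spike-in scaling 1 was higher and 0 lower at 4 h, and 3 were higher and 0 lower over all times. At 4 h those called by the percentile scaling were Srd5a1, the reductase that makes dihydrotestosterone (-0.32, SE 0.067, adjusted p = 0.0160), and Hsd17b4 of peroxisomal beta-oxidation (-0.23, adjusted p = 0.0484). At 24 h they were Hsd17b11, a dehydrogenase of lipid droplets (-0.49, SE 0.10, adjusted p = 0.00959), and H6pd, which supplies NADPH inside the endoplasmic reticulum (-0.23, adjusted p = 0.0461). The medians over the 19 genes were -0.058, -0.050 and -0.054 at the 3 times. With spike-in scaling the 2 differences at 4 h were -0.13 and -0.038 and were not called, while those at 24 h were -0.56 (adjusted p = 0.0181) and -0.30 (adjusted p = 0.0313).

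In sham cells 7 of these 19 genes rose and 9 fell from 0 h to 4 h, with a median of 0.10. Of all probes 59.1% were called there in either direction. Akr1c18, which inactivates progesterone, rose by 3.25 (SE 0.23, adjusted p = 1.2e-10), from a mean of -3.68 to -0.42. Fdxr, the reductase that feeds electrons to Fdx1, fell by 2.48 (SE 0.048, adjusted p = 2.4e-18), from 4.03 to 1.56. Cyp11b1, an adrenal hydroxylase, was well above background on 0 sham arrays at 0 h and on 3 of 4 at 4 h, at least 1.52-fold higher (adjusted p = 7.9e-05). In nsPEF cells it was well above background on 0 arrays at both times, and no fold is given there. At 24 h 3 were called higher and 10 lower (median -0.22), against 36.6% of all probes in either direction. Under spike-in scaling 15 were higher and 1 lower. Hsd17b7, of cholesterol synthesis, fell by 1.20 (SE 0.054, adjusted p = 1.5e-12), and Hsd11b1, which regenerates active glucocorticoid, differed by -1.23 (SE 0.39, adjusted p = 0.0180), with differences of -0.50 and -0.53 under spike-in scaling, the second not called (adjusted p = 0.215). At 24 h Hsd11b1 was well above background on 1 of 4 sham arrays. Hsd3b3 was well above background on 0 arrays at 0 h and 2 at 24 h, at least 1.11-fold higher (adjusted p = 0.0312).

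Genes of cholesterol import and transfer numbered 21, with 20 tested. Between nsPEF and sham 0 were called at 0 h, 1 at 4 h and 3 at 24 h, all lower, where 3.31% and 4.82% of all probes were called at 4 and 24 h. With spike-in scaling 4 were higher and 0 lower at 4 h. The genes called were Stard3, a carrier of late endosomes (-0.19, adjusted p = 0.0274), at 4 h, and Npc2, the lysosomal cholesterol binder (-0.21, adjusted p = 0.0370), Stard4, a soluble carrier (-0.21, adjusted p = 0.0353), and Scarb2 of lysosomes (-0.20, adjusted p = 0.0298) at 24 h. With spike-in scaling Stard3 stood at -0.00089 and none of the 3 at 24 h was called (differences -0.28, -0.28 and -0.27). From 0 h to 4 h in sham cells 4 rose and 7 fell, with a median of -0.036, near the 59.1% of all probes called in either direction. Soat1, which esterifies cholesterol for storage, rose by 1.35 (SE 0.051, adjusted p = 7.3e-15), Lipe, the hormone-sensitive lipase, differed by -1.79 (SE 0.17, adjusted p = 1.7e-08; well above background on 1 of 4 arrays at 4 h) and Lipa, the lysosomal lipase, fell by 1.19 (SE 0.070, adjusted p = 7.7e-12). At 24 h 3 rose and 8 fell (median -0.20), against 36.6% of all probes in either direction. Under spike-in scaling 17 were higher and 0 lower. Stard5 (-0.56, 0.14 with spike-in scaling), Dbi (-0.49, 0.20) and Lipe (-0.47, 0.23) changed most. Their differences turned sign under that scaling, where Dbi was called (adjusted p = 0.0105) and Stard5 and Lipe were not (adjusted p = 0.123 and 0.229).

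Of 24 genes of LH receptor signalling through cAMP 21 were tested. Exposure called 0, 1 and 0 of them at 0, 4 and 24 h, namely Prkacb, a catalytic subunit of protein kinase A (-0.18, SE 0.045, adjusted p = 0.0352), whose difference was 0.012 with spike-in scaling. This 1 of 21 stood against 3.31% of all probes, and with spike-in scaling 2 were higher and 0 lower at 4 h. From 0 h to 4 h in sham cells 10 rose and 6 fell, with a median of 0.13, and with quantile normalization 6 rose and 7 fell. By the percentile scaling 59.1% of all probes were called there in either direction. Prkar2a, a regulatory subunit of the kinase, rose by 1.61 (SE 0.10, adjusted p = 1.5e-11), Akap1, which anchors the kinase to mitochondria, rose by 1.28 (SE 0.088, adjusted p = 9.5e-11), and Pde4b, which breaks down cAMP, fell by 1.32 (SE 0.093, adjusted p = 1.2e-10). At 24 h 6 rose and 6 fell (median 0.0045), against 36.6% of all probes in either direction. Under spike-in scaling 17 were higher and 0 lower. Crtc1, a coactivator of CREB, fell by 0.73 (-0.031 with spike-in scaling, adjusted p = 0.733), Pde4b fell by 0.65 (0.051 with spike-in scaling), and Prkar2b rose by 0.54.

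Of 23 transcription factors of Leydig cells 18 were tested, and exposure called 0, 1 and 0 of them. The one called was Nr2f1, an orphan receptor (-0.24, SE 0.056, adjusted p = 0.0234, and -0.052 with spike-in scaling), at 4 h, where 3.31% of all probes were called. With spike-in scaling 3 were higher and 0 lower at 4 h, and with quantile normalization 2 were lower at 24 h. In sham cells 4 rose and 6 fell at 4 h (median -0.12), and 1 rose and 5 fell at 24 h (median -0.038; 14 higher and 1 lower with spike-in scaling). These counts were near the shares of all probes called in either direction, 59.1% at 4 h and 36.6% at 24 h. Nr4a1, an immediate-early nuclear receptor that activates steroidogenic genes, fell by 3.53 (SE 0.045, adjusted p = 1.5e-21) at 4 h and fell by 5.11 (SE 0.045, adjusted p = 2.1e-24) at 24 h, from a mean of 7.21 to 3.67 and 2.10. Nr2f2 rose by 1.17 (adjusted p = 1.4e-07) and Nr1h3, a sterol sensor, fell by 1.38 (adjusted p = 2.2e-04) at 4 h. Gata6 stood at -0.56 and Zfpm2 at -0.24 at 24 h, and at 0.14 and 0.46 with spike-in scaling.

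Of 12 surface receptors and growth factors of Leydig cells 11 were tested, and exposure called 0, 0 and 3 of them, against 4.82% of all probes at 24 h. At 4 h 2 were higher with spike-in scaling and 2 lower with quantile normalization, and at 24 h 1 was higher and 1 lower with spike-in scaling and 0 higher and 3 lower with quantile normalization. At 24 h Dlk1, of Leydig progenitors, was higher by 1.05 (SE 0.22, adjusted p = 0.0119) but dim, being well above background on 3 sham and 2 nsPEF arrays. The lowest signal well above background was higher too, at -4.31 to -3.83 in E24 against -5.01 to -4.71 in S24. Its part in the difference of Dlk1 was not tested. Pdgfrb (-0.33, SE 0.076, adjusted p = 0.0210) and Pdgfra (-0.24, SE 0.065, adjusted p = 0.0409), receptors for platelet-derived growth factor, were lower, the latter not called with spike-in scaling (-0.31, adjusted p = 0.0959), and Dlk1 was not called with quantile normalization (0.79, adjusted p = 0.0673). In sham cells 4 rose and 4 fell at 4 h (median -0.034) and 4 rose and 4 fell at 24 h (median 0.23; 8 higher and 0 lower with spike-in scaling). Of all probes 59.1% were called at 4 h and 36.6% at 24 h, in either direction. Inhba, the activin and inhibin subunit, rose by 3.72 (SE 0.054, adjusted p = 8.3e-21) at 4 h, Dlk1 rose by 1.40 and Pdgfrb fell by 1.71. At 24 h the differences were -0.73 for Dlk1 (-0.035 with spike-in scaling), -0.48 for Igf1 (0.22 with spike-in scaling) and 0.42 for Inhba.

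Markers of other cells of the testis were read beside the members, as sums of linear signal relative to the percentile. Of 7 Sertoli markers Sox9 and Rhox5 were well above background on all 24 arrays, while Amh was on 2 arrays, Fshr on 1 and Dhh on 0. The Sertoli sum was 1.33 to 1.36 in S0, 1.24 to 1.54 in E0, 0.797 to 0.869 in S4, 0.722 to 0.748 in E4, 0.332 to 0.530 in S24 and 0.313 to 0.750 in E24. Of 8 markers of peritubular myoid cells and fibroblasts Acta2, Cnn1, Tagln, Col1a1 and Col1a2 were on all 24. Their sum was 391 to 415 in S0, 376 to 429 in E0, 244 to 272 in S4, 264 to 275 in E4, 257 to 272 in S24 and 239 to 258 in E24. The Leydig sum was 4.53 to 6.44 in S0, 3.69 to 5.50 in E0, 3.65 to 4.71 in S4, 3.96 to 4.30 in E4, 2.85 to 4.19 in S24 and 3.20 to 4.30 in E24. Most of the Leydig sum was signal of the Cyp17a1 probe, which alone gave 4.00 to 5.86 in S0 and 2.33 to 3.58 in S24. As levels of different probes cannot be set against each other, the sums do not give amounts of one gene or cell type against another. The sums are relative to the percentile, while spike-in scaling put the median of all probes 0.70 higher on the log2 scale at 24 h than at 0 h in sham cells.

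Of 6 macrophage markers Csf1r and Cd68 were on all 24 arrays and Adgre1 and Ptprc were on 1. The macrophage sum was 3.15 to 3.35 in S0, 2.55 to 3.08 in E0, 4.87 to 5.83 in S4, 5.04 to 5.62 in E4, 1.69 to 1.92 in S24 and 1.70 to 1.90 in E24, so it stood highest at 4 h. Its markers did not move together. From 0 h to 4 h Csf1r rose by 1.65 in sham and 2.13 in nsPEF cells, while Cd68 fell by 0.91 and 0.97. Of 6 germ cell markers Tnp1 was on all 24, and the sum was 0.345 to 0.601 in S0, 0.320 to 0.566 in E0, 0.321 to 0.603 in S4, 0.312 to 0.602 in E4, 0.244 to 0.290 in S24 and 0.267 to 0.435 in E24. Of 5 endothelial markers Pecam1 was on all 24 and Cdh5, Kdr and Tek were on 0, with sums from 0.126 to 0.288 over all arrays. Of 5 adrenal markers none was on all arrays, with sums from 0.126 to 1.50.

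Between nsPEF and sham Csf1r was lower at 0 h (-0.57, adjusted p = 0.0355), and with spike-in scaling it was not called (-0.42, adjusted p = 0.101). Myh11 was higher at 0 h (2.28, adjusted p = 0.0355) and at 24 h (2.09, adjusted p = 0.00826), and the call at 0 h was lost with quantile normalization (2.13, adjusted p = 0.0524). It was well above background on 3 of 4 arrays in S0 and 2 of 4 in S24. Lyz2 was higher at 4 h (1.86, adjusted p = 0.0285) and was well above background on 1 sham and 3 nsPEF arrays. Ddx4 was lower at 24 h, at least 1.12-fold (adjusted p = 0.0301), and with spike-in scaling it was not called (adjusted p = 0.0541). In sham cells markers moved in both directions with time. At 4 h Sox9 fell by 1.22, Cd68 fell by 0.91, Col1a1 fell by 0.56, Col1a2 fell by 1.02 and Pecam1 fell by 0.40, while Csf1r rose by 1.65, Acta2 by 0.72, Cnn1 by 1.34 and Tagln by 1.30. At 24 h Sox9 fell by 2.83, Rhox5 fell by 1.01, Cd68 fell by 1.17, Csf1r fell by 0.52, Cnn1 fell by 0.94, Tagln fell by 0.42, Col1a1 fell by 0.45 and Col1a2 fell by 0.79, and Pecam1 rose by 0.64. With spike-in scaling the differences of Tagln (0.28), Col1a1 (0.25) and Csf1r (0.17) turned sign at 24 h. Only that of Col1a1 was called (adjusted p = 0.00525), and those of Tagln and Csf1r were not (adjusted p = 0.0666 and 0.216). The part of the markers in the results for the members was not tested.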

How the data were processed

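RNA of TM3 cells in 6 groups of 4 replicates was measured on 24 arrays. The authors labelled it with Cy3, added spike-in RNA and read the arrays with Agilent Feature Extraction 12.0. The deposited processed signal is an intensity with the background already taken off by the software. A deposited series table gives log2 values that the authors shifted to the 75th percentile with a baseline for each probe, and it was used as an alternative. Here, unmarked spots of a probe were averaged (59305 spots, 56605 probes, 0 saturated spots), brought to log2 and the 75th percentile of each array was subtracted. Probes were matched to symbols by RefSeq transcript (34566 matched), and a gene with several probes stood in the lists by the one with the highest mean.

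Under R 4.3.3, 6 group means were fitted with limma 3.58.1, with Benjamini-Hochberg adjustment over 37684 tested probes. The fit was tested on simulated data. Named genes are all member probes, up to 3 genes of each list with the largest difference among those called, markers on all arrays and the 3 genes most like each member, of which 1 is not reported here. Where a gene was below background in a group, its fold is a bound against the lowest signal well above background on the same arrays. The members and lists were chosen with earlier results of these data known. The number of arrays limits the precision. Alternatives were other normalizations, filters, background corrections and models, and fits without each array or replicate number.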

Additional observations from a re-analysis of the deposited data

Results flagged for a closer look

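In 72 groups of 4 arrays (12 member probes in 6 groups), 3 held a value far from the other 3, where chance flags about 1 in 20. Star in S4 replicate 2 stood at -1.79, with the others between -2.36 and -2.28. Nr5a1 in S24 replicate 4 stood at -2.21, with the others between -2.44 and -2.43. Hsd3b1 probe 2 in E4 replicate 4 stood at -3.46, with the others between -6.34 and -5.88, and this was the only array on which that probe was well above background.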

How the results depend on the processing

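The results were recomputed under 44 alternatives, of which 28 left out an array or a replicate number and 1, a 75th percentile over spots in place of probes, was chosen after seeing the data. Counts of member probes called at 0 h, for the interaction, for time and for the nsPEF and sham comparisons of 4 h with 0 h stayed within 1.5 times the main count. At 4 h spike-in scaling gave 1 probe between nsPEF and sham, and at 24 h array quality weights gave 1. Over all times the count of 1 became 0 with quantile normalization, a percentile over probes detected on all arrays or 1 value per gene symbol. It became 2 with normexp background, a floor at the background, no filter, marked spots kept, the deposited log2 values, centring by array row or the percentile over spots, and 3 with array quality weights. Leaving out an array or a replicate number gave 0 to 2. In sham cells from 0 h to 24 h spike-in scaling gave 4 in place of 7, all 4 higher. Under it the differences turned to 0.073 for Star, 0.40 for Nr5a1, 0.027 and 0.10 for Scarb1 probes 1 and 2, and 0.42 and 0.49 for Fdx1 probes 1 and 2 in sham cells, and to 0.081 for Scarb1 probe 2 and 0.26 for Fdx1 probe 1 in nsPEF cells. Differences not called before also turned, to 0.58 for Por in sham cells, and to 0.42 for Por, 0.44 for Nr5a1, 0.31 for Fdx1 probe 2 and 0.24 for Cyp17a1 in nsPEF cells. There 4 probes were called higher in place of 4 lower, with only Fdx1 probe 1 in both sets. Spike-in scaling moves all probes of an array by 1 value, as the shift of the median shows. The cause of the other changes was not tested.

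Samples with the same replicate number correlated by -0.0469 to 0.0997 in their deviations, none over 0.1. At 4 h every nsPEF array was most like the sham array of its own number. At 0 h this held for replicates 1 and 4, and at 24 h for replicate 4 alone. The study states that the tests of a biological replicate were run on 1 cell suspension but not that the array numbers mark it, so whether the numbers pair the samples was not settled. With the replicate block 6 in place of 5 member probes were called in sham cells at 4 h, 8 in place of 7 at 24 h, and 5 in place of 4 in nsPEF cells at 24 h, and the other counts were equal. Dim members are limited by the signal over background, Star most among the tested probes.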
